A study of Mus musculus with 6 samples.

Results

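Glutathione synthesis and recycling in the mouse lung was followed through 7 genes: Gclc, Gclm, Gss, Slc7a11, Gsr, Glrx and Glrx2. They were taken as every array probe set whose platform annotation names exactly 1 gene symbol and that symbol is among the 7. This gave 12 probe sets of 45037 tested, or 7 of 17097 genes, and all 12 are described here without a filter on low values. The hydrogen group was 3 male BALB/c mice kept for 3 weeks in air with 2% hydrogen gas, and the control group was 3 mice of the same strain and sex in normal air. All were 10 weeks old at the start, and the labels name no genetic modification or further agent in either group. RNA of each whole lung was read on a separate oligonucleotide array, and the comparison asks which transcripts differ after breathing hydrogen, a gas studied for its effects on oxidative stress.

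Glutathione is the tripeptide of glutamate, cysteine and glycine that cells use as their main thiol reductant, and the fluid lining the airspaces is rich in it. Its supply depends on cystine uptake, on 2 ligation steps in the cytosol, and on the reduction of oxidised glutathione with NADPH. Glutaredoxins then use glutathione to reduce mixed disulfides on proteins. Several of these genes are known targets of NRF2, a transcription factor switched on by oxidants and electrophiles, and the cystine carrier is also a target of ATF4, which answers amino acid shortage.

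RefSeq windows of GRCm38.p6 before the transcription start were at hand for 5 of the 7 genes (Gclm, Gss, Slc7a11, Glrx and Glrx2). Gclm and Glrx2 are shown because their transcripts differed between the groups, and Slc7a11 because it is the uptake gene, was dim on every array and holds matches to another motif. Each is written 5′ to 3′ on the strand of the gene, and capitals mark matches to any of 3 motifs, searched on both strands in the 250 bases before the start. Gclm and Glrx2 are printed only up to the outermost annotated start of the gene.
Gclm, chr3:122245307-122245486, plus strand: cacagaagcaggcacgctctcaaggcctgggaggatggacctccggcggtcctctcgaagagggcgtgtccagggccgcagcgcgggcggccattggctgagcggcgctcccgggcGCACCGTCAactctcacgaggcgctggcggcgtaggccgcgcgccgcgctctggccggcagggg
Glrx2, chr1:143739099-143739223, plus strand: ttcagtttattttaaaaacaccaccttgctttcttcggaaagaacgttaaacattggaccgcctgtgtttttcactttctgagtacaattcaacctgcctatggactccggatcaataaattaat
Slc7a11, chr3:50443614-50443863, minus strand: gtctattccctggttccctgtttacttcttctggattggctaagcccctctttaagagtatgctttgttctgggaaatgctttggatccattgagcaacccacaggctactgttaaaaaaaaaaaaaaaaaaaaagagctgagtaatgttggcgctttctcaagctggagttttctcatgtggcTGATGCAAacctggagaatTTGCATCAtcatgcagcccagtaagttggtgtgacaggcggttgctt
The core letters of the antioxidant response element, to which NRF2 binds, were searched as TGACNNNGC. Gclm held 1 match, on the opposite strand, at bases -64 to -56 counted back from the last base printed. Its searched window runs on 70 bases further, to a listed start inside the span of the gene, from which the same match lies at -134 to -126. In such windows 11.5% of 27025 genes had at least 1 match. The ATF4 type element, searched as TGATGNAA, was found 2 times in Slc7a11, at bases -66 to -59 and, on the opposite strand, -47 to -40, where 3.91% of genes had a match. The AP-1 element, searched as TGACTCA, was in the window of Glrx, at bases -98 to -92 from the first listed start, and in 5.16% of genes. The first motif can overlap the third. The Gss window and the 4 Glrx2 windows held none of the 3 motifs, and the Slc7a11 window lies inside the annotated span of that gene's longer transcripts. These matches are a description of letters only.

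The arrays set the scale for all that follows. Values are on the log2 scale, and a difference of 1 is a doubling of signal. Array medians were 4.84 to 4.85 in hydrogen lungs and 4.75 to 4.76 in control lungs. The hydrogen arrays had a narrower spread over probe sets (SD 1.80 to 1.81, against 1.90 to 1.92 in controls). Of all 45037 probe sets, 47.1% were past the threshold, a limma p under 0.05 after Benjamini-Hochberg adjustment over all of them, 24.3% higher and 22.8% lower in hydrogen lungs, and the groups did not overlap for 57.3%. Centring the arrays on their medians turned the split to 14.2% higher and 32.4% lower. The array's bacterial, phage and nonspecific control probe sets, which target no mouse transcript, moved as well: 42 of 85 passed, with changes from -0.97 to 1.07. The labels name no batch, and the part of a batch in these differences was not tested. The median change also followed brightness, at 0.15 in the fourth decile of mean value and -0.23 in the ninth, which holds 6 of the 12 probe sets. Surfactant genes were bright in both groups, with Sftpc at 13.17 ± 0.02 in hydrogen lungs and 13.15 ± 0.01 in control lungs (SD, n = 3 each), so a defining marker of the labelled tissue was present on every array.

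Both subunits of glutamate-cysteine ligase, the first step of glutathione synthesis, fell in hydrogen lungs, and the second step did not pass the test. Gclc fell to 62.3% of its control signal and Gclm to 70.9%. Glrx2, the mitochondrial glutaredoxin, fell on 2 of its 3 probe sets, and Gsr, glutathione reductase, on 1 of its 2. Gss, Slc7a11 and Glrx did not pass on any probe set. In all, 5 of the 12 probe sets were lower and 0 higher in limma, 6 had an unadjusted p under 0.05, and the share past the threshold, 41.7%, was near the 47.1% of all probe sets. The share that was lower, also 41.7%, stood against 22.8% of all probe sets. With the dim probe sets dropped, 5 of 10 members were lower, against 37.3% of the 22517 probe sets left. The groups did not overlap for 5 of the 12, against the 57.3% given above. Median changes were -0.13 over the 12 and 0.02 over all probe sets, and 0.01 for each after repeated quantile normalisation. The median changes of the brightness deciles in which the 12 lie had a median of -0.20 over the 12. Only Gclc and Gclm of the 12 passed when the 6 arrays were quantile normalised again or fitted by cyclic loess.

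**Figure D1:**
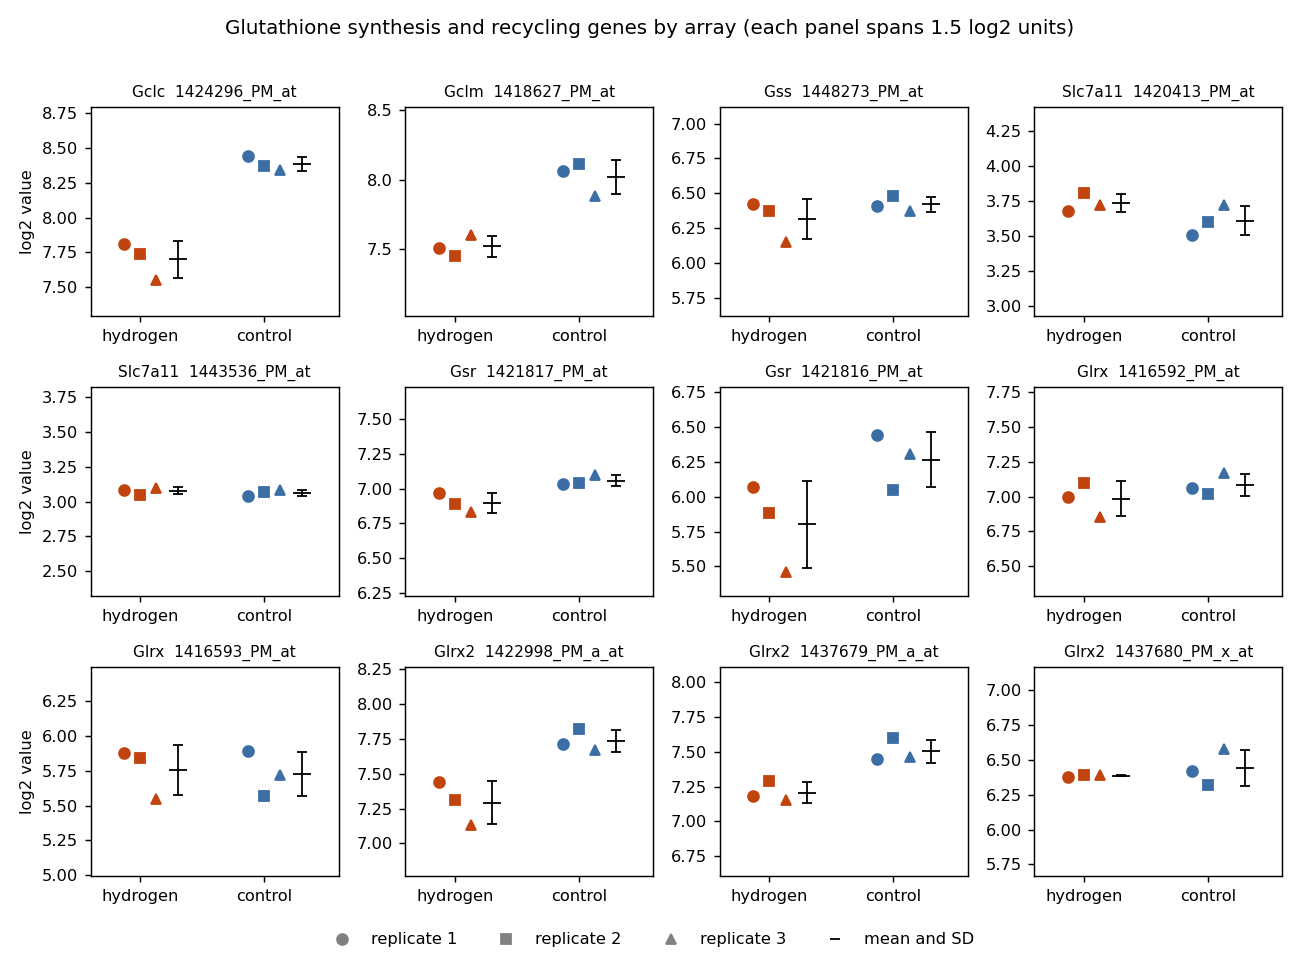
Log2 value of each of the 12 probe sets on each array, hydrogen mice left and control mice right, with the replicate given by the marker shape and the mean ± SD (n = 3) beside each group. Gclc is separated most widely, with hydrogen values of 7.55 to 7.81 and control values of 8.34 to 8.44, while both Slc7a11 panels lie at or below 3.81 in every mouse.

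Gclc encodes the catalytic subunit of glutamate-cysteine ligase, which joins glutamate to cysteine and sets the rate of glutathione synthesis. Its probe set 1424296_PM_at read 7.81, 7.74 and 7.55 in the hydrogen mice and 8.44, 8.37 and 8.34 in the control mice. All hydrogen values lay below all control values, with a gap of 0.53 between the nearest of them. The log2 fold change was -0.68 (SE 0.08, 95% confidence interval -0.86 to -0.51, limma adjusted p = 0.000467). Of the 4504 probe sets in its brightness decile, whose median change was -0.23, 4.84% had a change this low or lower. The change was -0.46 after repeated quantile normalisation and -0.49 after cyclic loess, past the threshold in each (adjusted p = 0.00289 and 0.00226). Leaving out any 1 mouse gave -0.74 to -0.61.

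Gclm encodes the modifier subunit, which raises the affinity of the ligase for glutamate and eases its inhibition by glutathione. On 1418627_PM_at the hydrogen mice had 7.51, 7.45 and 7.60, and the control mice 8.06, 8.11 and 7.88. Again the groups did not overlap, with a gap of 0.28. The log2 fold change was -0.50 (SE 0.08, 95% confidence interval -0.67 to -0.33, limma adjusted p = 0.00145). The hydrogen mouse lowest for Gclc, replicate 3, was the highest of its group for Gclm. The change was -0.27 after repeated quantile normalisation and -0.30 after cyclic loess, where adjusted p was 0.0199 and 0.0145. Among the 5 members with a window, Gclm was the only one with the antioxidant response element core. Gclc and Gsr had no window to search.

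Gss encodes glutathione synthetase, which adds glycine in the second and last step. Its probe set 1448273_PM_at read 6.42, 6.37 and 6.15 in hydrogen mice and 6.41, 6.48 and 6.37 in control mice. The groups overlapped, and only hydrogen replicate 3 lay apart from the other values. The log2 fold change was -0.11 (95% confidence interval -0.29 to 0.07, limma adjusted p = 0.291), so a fall of up to 0.29 is within the interval. Its sign turned after repeated quantile normalisation (0.05) and cyclic loess (0.03).

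Slc7a11 encodes xCT, the subunit of the cystine and glutamate exchanger that brings in cystine. It was dim in every lung. On 1420413_PM_at the hydrogen mice had 3.68, 3.81 and 3.72 and the control mice 3.51, 3.60 and 3.72, all below the array medians. On 1443536_PM_at the values were 3.08, 3.05 and 3.10 in hydrogen mice and 3.04, 3.07 and 3.08 in control mice. Only 18.4% of probe sets had a lower mean than the first and 2.28% a lower mean than the second. The log2 fold changes were 0.13 (95% confidence interval -0.03 to 0.29, limma adjusted p = 0.166) and 0.01 (-0.10 to 0.13, adjusted p = 0.849). After repeated quantile normalisation and cyclic loess the first changed by 0.03 in each, and the second turned to -0.01 and -0.02. Its partner Slc3a2, the heavy chain that carries xCT and other amino acid exchangers to the membrane, was bright and fell by 0.31 (8.56, 8.59 and 8.5 in hydrogen mice, against 8.76, 8.90 and 8.92 in control mice, limma adjusted p = 0.00494). That call ended after repeated quantile normalisation (-0.13, adjusted p = 0.155) and cyclic loess (-0.14, adjusted p = 0.139).

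Gsr encodes glutathione reductase, which returns oxidised glutathione to its thiol form with NADPH. Its probe sets differed in size of change. The brighter one, 1421817_PM_at, had 6.97, 6.89 and 6.83 in hydrogen mice and 7.03, 7.04 and 7.10 in control mice. These groups did not overlap, but the gap was only 0.06 and the log2 fold change of -0.16 missed the threshold (95% confidence interval -0.29 to -0.03, limma adjusted p = 0.0514). The dimmer one, 1421816_PM_at, had 6.07, 5.88 and 5.46 in hydrogen mice and 6.44, 6.05 and 6.31 in control mice. Here hydrogen replicate 1 lay above control replicate 2, and the log2 fold change was -0.46 (SE 0.15, limma adjusted p = 0.0376). The second call ended without hydrogen replicate 2 or 3 (-0.50 and -0.29, adjusted p = 0.0656 and 0.0836), without control replicate 1 or 3 (-0.38 and -0.44, adjusted p = 0.120 and 0.0874), after repeated quantile normalisation (adjusted p = 0.124), after cyclic loess (0.0953) and with array weights (0.0547). On the brighter probe set the sign turned after repeated quantile normalisation (0.06) and cyclic loess (0.03). Its change passed after median centring (-0.25, limma adjusted p = 0.00815) and without hydrogen replicate 1 (-0.20, adjusted p = 0.0449). It also passed narrowly when shared probe sets were left out of the fit (-0.16, adjusted p = 0.0499). With the mean of both its probe sets, Gsr changed by -0.31 (adjusted p = 0.0268).

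Glrx encodes glutaredoxin of the cytosol, which removes glutathione from protein cysteines. Neither of its probe sets passed. On 1416592_PM_at the hydrogen mice had 7.0, 7.10 and 6.85 and the control mice 7.06, 7.02 and 7.17, an overlapping pair of groups. The log2 fold change was -0.10 (95% confidence interval -0.28 to 0.08, limma adjusted p = 0.310). On 1416593_PM_at the values were 5.88, 5.84 and 5.55 in hydrogen mice and 5.89, 5.57 and 5.72 in control mice, with a change of 0.03 (95% confidence interval -0.22 to 0.28, adjusted p = 0.839). The sign of the first turned after repeated quantile normalisation (0.13) and cyclic loess (0.09).

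Glrx2 encodes the glutaredoxin of mitochondria, which can also hold an iron-sulfur cluster. On its brightest probe set, 1422998_PM_a_at, the hydrogen mice had 7.44, 7.31 and 7.13 and the control mice 7.71, 7.82 and 7.67. The groups did not overlap, and the log2 fold change was -0.44 (SE 0.08, limma adjusted p = 0.00396). On 1437679_PM_a_at they had 7.18, 7.29 and 7.15 in hydrogen mice and 7.45, 7.60 and 7.46 in control mice, with a change of -0.30 (SE 0.07, adjusted p = 0.00746). The third, 1437680_PM_x_at, whose suffix marks probes that may also match other transcripts, had 6.38, 6.39 and 6.39 in hydrogen mice and 6.42, 6.32 and 6.58 in control mice. That probe set had a change of -0.05 (95% confidence interval -0.22 to 0.11, adjusted p = 0.566), which turned to 0.11 after repeated quantile normalisation and 0.09 after cyclic loess. For the other probe sets both calls ended after repeated quantile normalisation (-0.21 and -0.06, adjusted p = 0.0907 and 0.508) and cyclic loess (-0.24 and -0.10, adjusted p = 0.0639 and 0.308). With the mean of its 3 probe sets, Glrx2 changed by -0.26 (adjusted p = 0.00379).

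**Figure D2:**
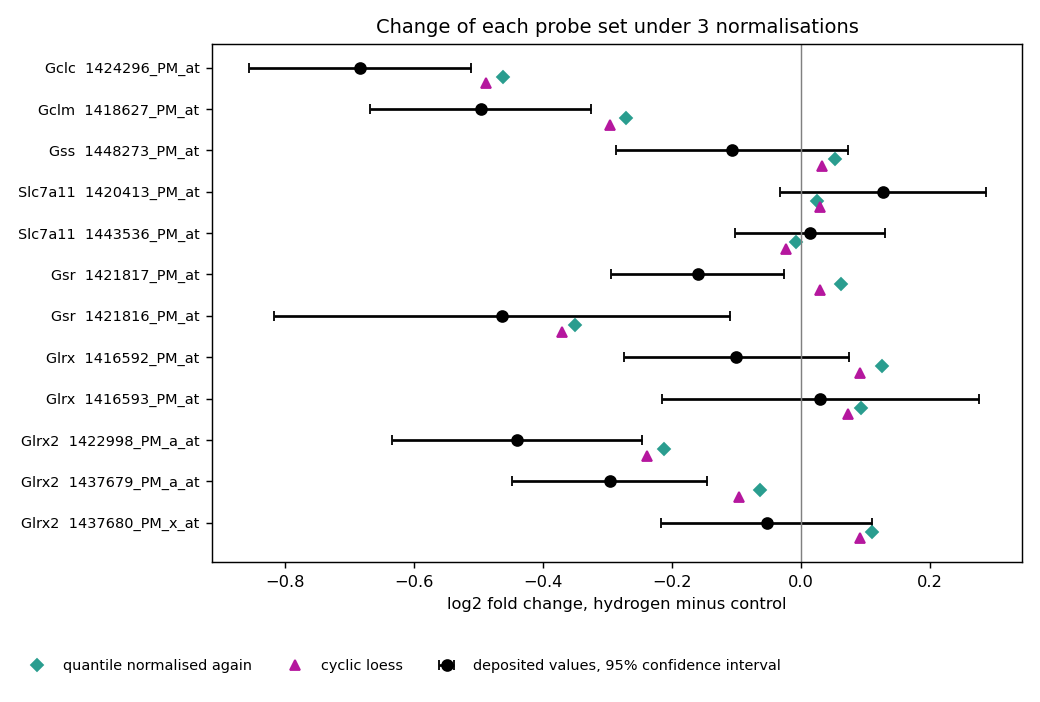
Log2 fold change (hydrogen minus control) of each probe set, with the limma 95% confidence interval on the deposited values as a black bar, and the value after repeated quantile normalisation (diamonds) and cyclic loess (triangles). Both normalisations move every probe set but those of Slc7a11 to the right, and Gclc stays lowest at -0.46 and -0.49.

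Set against probe sets of like brightness, the 12 did not lie to one side. Of the 6 in the ninth decile, whose median change was -0.23, Gclc, Gclm and both bright Glrx2 probe sets were lower than the median and the brightest Gsr and Glrx probe sets higher. In that decile 15.2% of probe sets had a change as low as that of Gclm or lower, 20.3% as low as the brightest Glrx2 probe set and 39.1% as low as the other called one. In the seventh decile, with a median of -0.05, 14.6% were as low as the dimmer Gsr probe set or lower. Gss and the third Glrx2 probe set were higher than the median of their decile.

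**Figure D3:**
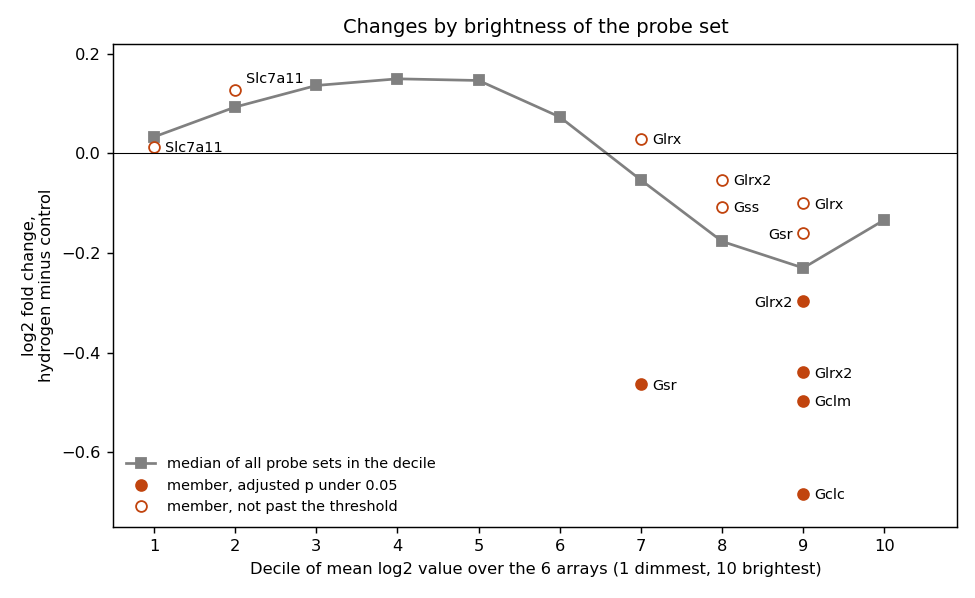
Log2 fold change (hydrogen minus control) against the decile of mean log2 value, with the median of all probe sets in each decile as grey squares and the 12 probe sets as circles, filled where adjusted p was under 0.05. Gclc (-0.68), Gclm (-0.50) and the dimmer Gsr probe set (-0.46) lie well below the grey line, and the Slc7a11 probe sets lie close to it.

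The SD was larger in hydrogen mice than in control mice for 8 of the 12 probe sets and smaller for 4. That of Gclc was 0.13 in hydrogen mice and 0.05 in control mice, while that of Gclm was 0.08 in hydrogen mice and 0.12 in control mice. Hydrogen replicate 3 lay above its group mean for only 3 of the 12 probe sets, against 8 for replicate 1 and 9 for replicate 2. Airway, heart and fat markers followed another order. The mean log2 level of 5 of 5 club cell markers was 10.65 to 12.03 in hydrogen mice and 12.40 to 12.49 in control mice. Much of that gap was Bpifa1, a secreted airway protein gene with 10.65, 4.01 and 7.88 in hydrogen mice and 12.07, 11.82 and 11.96 in control mice. Without Bpifa1, a step chosen after its values were seen, the club cell level was 12.31 to 12.40 in hydrogen mice and 12.52 to 12.60 in control mice. Of the markers left, Aldh1a1 (-0.41) and Scgb3a2 (-0.26) were lower past the threshold. Cyp2f2 did not pass (-0.13, limma adjusted p = 0.0921). Scgb1a1 had 13.23 in hydrogen lungs and 13.22 in control lungs (0.01, adjusted p = 0.846). The mean log2 level of 5 of 6 cardiac muscle markers was 5.45 to 7.47 in hydrogen mice and 8.69 to 9.13 in control mice, and that of 2 of 4 adipocyte markers 4.24 to 8.51 and 8.49 to 8.82. In all 3 lists, also in the club cell list without Bpifa1, hydrogen replicate 2 was lowest. In that mouse Bpifa1 (4.01), Nppa (3.96), Actn2 (4.42) and Adipoq (3.44) were below the array median of 4.85. The other measured markers of the 3 lists were above it. Ciliated cell markers, 2 of 3 measured, had 6.34 to 6.48 in hydrogen mice and 6.85 to 7.32 in control mice. The 4 alveolar type 1 markers had 10.75 to 10.83 in hydrogen mice and 10.88 to 10.96 in control mice. Of these, 3 of 4 were lower past the threshold, but their median change of -0.16 was near the -0.13 of their brightness deciles. The 3 T cell markers had 5.55 to 5.58 in hydrogen mice and 5.24 to 5.41 in control mice, with 1 of 3 higher past the threshold. Over all genes, each taken by its brightest probe set, 25.9% were lower and 25.5% higher, and the groups did not overlap for 61.0%. Of 12 marker lists, the levels of the alveolar type 1, T cell, club, cardiac muscle and ciliated lists did not overlap between the groups. The other lists overlapped, such as 4 of 6 alveolar type 2 markers at 10.87 to 10.91 in hydrogen mice and 10.88 to 11.02 in control mice. How often lists of other genes separate between the groups was not tested. The part of cell makeup in the changes of glutathione genes was not tested. Without hydrogen replicate 2 the changes of Gclc, Gclm and the brightest Glrx2 probe set were -0.70, -0.46 and -0.45, all past the threshold. This does not test cell makeup, since hydrogen replicates 1 and 3 also lay below every control mouse for the club, cardiac muscle and ciliated lists. In whole lung, fewer cells of a type and less RNA per cell cannot be told apart.

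Other genes of glutathione metabolism were read from 7 lists with 59 entries, of which 50 had a probe set of their own, each represented by its brightest. Of the 50, 19 were lower and 5 higher in hydrogen lungs, and 48% passed in all. Over all genes taken the same way 51.4% passed, 25.9% lower and 25.5% higher. The median change of the 50 was -0.17, against 0.01 over all genes, and turned to 0.01 after repeated quantile normalisation and -0.01 after cyclic loess. The 50 were brighter than genes in general, with 6 in the dimmer part of all probe sets, against 6289 of 17097 genes. The median changes of their brightness deciles had a median of -0.13, near their own -0.17. For each list below, the same measure is given as the decile median. The counts in each list stand against the 25.9% lower and 25.5% higher over all genes. Without hydrogen replicate 2 the count of lower genes was 12. After cyclic loess 8 of the 24 kept their call, which were Oplah, Chac2, Cth, Nnt, Slc25a40, Gpx7 and Gpx8 on the lower side and Abcc5 on the higher.

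**Figure D4:**
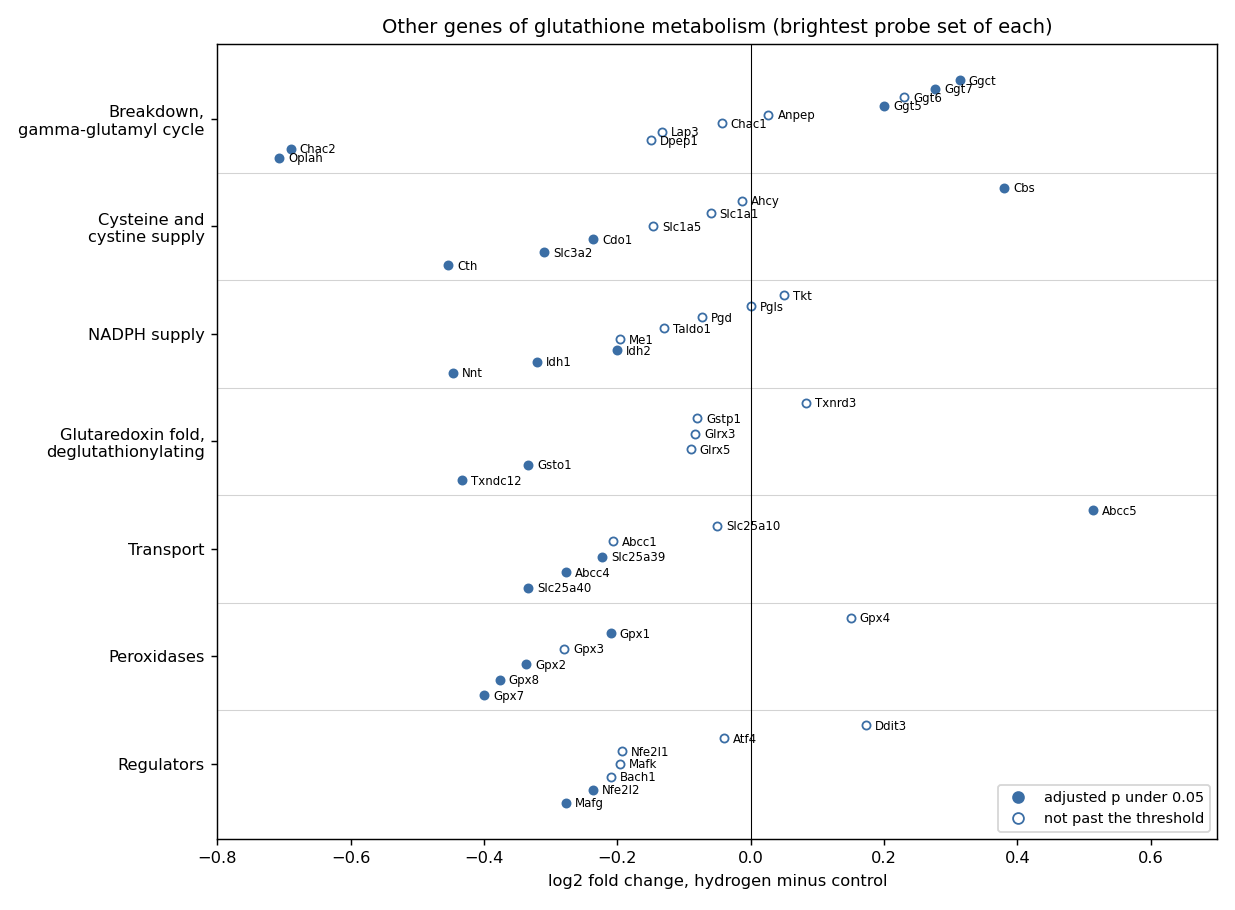
Log2 fold change (hydrogen minus control) of the brightest probe set of 50 further genes in 7 lists, filled where adjusted p was under 0.05. Oplah and Chac2 lie furthest left at -0.71 and -0.69, and Abcc5 furthest right at 0.51.

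Enzymes of glutathione breakdown went both ways, with 2 of 10 lower, 3 higher and a median change of -0.01 (decile median 0.01). Chac2, which cleaves glutathione in the cytosol, had 5.03, 4.98 and 5.31 in hydrogen mice and 5.86, 5.87 and 5.66 in control mice (log2 fold change -0.69, limma adjusted p = 0.00113). Oplah, the oxoprolinase that returns 5-oxoproline to glutamate, had 5.63, 5.96 and 6.08 in hydrogen mice and 6.51, 6.76 and 6.52 in control mice (-0.71, adjusted p = 0.00223). In neither gene did the groups overlap. Ggct, which releases 5-oxoproline from gamma-glutamyl dipeptides, was dim and rose by 0.31, at 3.97 ± 0.03 in hydrogen lungs and 3.66 ± 0.14 in control lungs (SD, n = 3 each, limma adjusted p = 0.00934). That call ended after repeated quantile normalisation (0.20, adjusted p = 0.0617) and cyclic loess (0.20, adjusted p = 0.0518).

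Genes of cysteine supply included 3 lower and 1 higher of 7 (median -0.15, decile median -0.13). In the transsulfuration route, Cbs, which makes cystathionine, rose (4.80 ± 0.07 in hydrogen lungs, 4.42 ± 0.16 in control lungs, SD, n = 3 each, log2 fold change 0.38, limma adjusted p = 0.00789), although this ended after cyclic loess (0.24, adjusted p = 0.0512). Cth, which releases cysteine from it, fell (4.48 ± 0.10 in hydrogen lungs, 4.93 ± 0.24 in control lungs, SD, n = 3 each, log2 fold change -0.45, limma adjusted p = 0.0127). Both Cbs and Cth were dim, and the median change at their brightness was 0.15. The other Cbs probe set did not pass (0.29, adjusted p = 0.0588). The other named gene of the list, Slc3a2, is given above with Slc7a11.

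Of 8 genes that supply NADPH, 3 were lower and none higher (median -0.16, decile median -0.13). Nnt, the mitochondrial transhydrogenase, had 8.66, 8.69 and 8.82 in hydrogen mice and 9.19, 9.20 and 9.12 in control mice (log2 fold change -0.45, limma adjusted p = 0.00105), and its other probe set changed by -0.44. The NADP-dependent isocitrate dehydrogenases Idh1, of the cytosol, and Idh2, of mitochondria, fell by 0.32 and 0.20 (adjusted p = 0.00396 and 0.0230). Both calls ended after repeated quantile normalisation (-0.17 and 0.02, adjusted p = 0.0581 and 0.818) and cyclic loess (-0.18 and -0.01, adjusted p = 0.0509 and 0.943). That of Idh2 also ended without hydrogen replicate 3 or control replicate 1 or 2 (adjusted p = 0.0709, 0.0672 and 0.0570). The other Idh2 probe set had 6.16 in hydrogen lungs and 6.18 in control lungs (-0.02, adjusted p = 0.886).

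Among 6 genes of the glutaredoxin and thioredoxin fold, 2 were lower and none higher (median -0.09, decile median -0.18). Txndc12, a thioredoxin-fold protein of the endoplasmic reticulum, fell by 0.43 (adjusted p = 0.00429), and Gsto1, a glutathione transferase that removes glutathione from proteins, by 0.33 (adjusted p = 0.0397). Glrx5, which serves iron-sulfur cluster assembly in mitochondria, had -0.09 (adjusted p = 0.208), and passed after median centring (-0.18, adjusted p = 0.0280). The Txndc12 call ended after repeated quantile normalisation and cyclic loess (adjusted p = 0.0908 and 0.0604). That of Gsto1 ended there too (0.239 and 0.219) and without hydrogen replicate 1 or 2 or control replicate 1 or 2 (0.0986, 0.129, 0.118 and 0.117), while its other probe set changed by -0.48 (adjusted p = 0.00165).

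Transporters included 3 lower and 1 higher of 6 (median -0.22, decile median -0.20). Abcc5, an export pump of organic anions and cyclic nucleotides, had 7.95, 8.19 and 7.94 in hydrogen mice and 7.51, 7.55 and 7.48 in control mice (log2 fold change 0.51, limma adjusted p = 0.00133). Of its 7 probe sets, 3 were higher past the threshold and none lower. Slc25a40, a mitochondrial carrier, had 6.13, 6.11 and 6.11 in hydrogen mice and 6.48, 6.39 and 6.48 in control mice (-0.33, adjusted p = 0.00183). Its relative Slc25a39, which imports glutathione into mitochondria, fell by 0.22 on its brightest probe set (adjusted p = 0.0347) and by 0.24 on the next (adjusted p = 0.0424). It rose by 0.51 on a dim one (adjusted p = 0.000524) and did not pass on the remaining one (0.10, adjusted p = 0.542). The fall on the brightest did not pass after repeated quantile normalisation or cyclic loess (adjusted p = 0.211 and 0.323). Nor did it pass without hydrogen replicate 1, 2 or 3 (0.0971, 0.0612 and 0.0757) or control replicate 2 or 3 (0.111 and 0.0962).

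Genes of the glutathione peroxidase family were lower in 4 of 6 cases and higher in none (median -0.31, decile median -0.13). Over all genes 25.9% were lower. Gpx8 and Gpx7, of the endoplasmic reticulum, fell by 0.38 and 0.40 (adjusted p = 0.00260 and 0.00620), and the epithelial Gpx2 by 0.34 (adjusted p = 0.00741). After repeated quantile normalisation none of the 3 passed (adjusted p = 0.0711, 0.0706 and 0.282), and after cyclic loess Gpx2 did not (0.175). Of 7 regulators, 2 were lower and none higher (median -0.20, decile median -0.13). Nfe2l2, the gene of NRF2, had 9.30, 9.13 and 9.35 in hydrogen mice and 9.47, 9.55 and 9.47 in control mice (log2 fold change -0.24, limma adjusted p = 0.0233). Mafg, a small partner of NRF2 on DNA, fell by 0.28 (adjusted p = 0.0282), and the related factor gene Nfe2l1 had -0.19 (adjusted p = 0.0530). Nfe2l1 passed after median centring (-0.28, adjusted p = 0.0116), with array weights (0.0474), with a robust prior and trend (0.0381) and without control replicate 1 (0.0241). The calls of Nfe2l2 and Mafg ended after repeated quantile normalisation (adjusted p = 0.351 and 0.697), cyclic loess (0.325 and 0.532) and on leaving out hydrogen replicate 2 (0.0774 and 0.0944) or control replicate 2 (0.0752 and 0.0728). That of Mafg also ended without hydrogen replicate 1 (0.0764) or control replicate 3 (0.0778).

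The profile over the 6 arrays nearest to that of Gclc was sought among 17090 other genes, by the root mean square difference of log2 values after each probe set's own mean was subtracted. The nearest were the co-chaperone gene Dnajc21 (0.02), the RNA-binding protein gene Rbm47 (0.03), the ubiquitin-conjugating enzyme gene Ube2q2 (0.03), the dermatan sulfate epimerase gene Dse (0.05) and Pcyt1a (0.05), of phosphatidylcholine synthesis. Their log2 fold changes were -0.67, -0.64, -0.66, -0.71 and -0.71. For Slc7a11 the nearest were Crp, Cps1, Gga1, Ermn and Fam122c, at 0.02 each, with changes of 0.10 to 0.14. All but Gga1 were dim like Slc7a11, with group means of 3.53 to 4.09, below the array medians. Gga1 was bright, at 7.32 in hydrogen mice and 7.20 in control mice, and its change became 0.35 (adjusted p = 0.0057) after repeated quantile normalisation and 0.32 (adjusted p = 0.0079) after cyclic loess. That of Slc7a11 was 0.03 after either, so the likeness of Gga1 did not hold there. Likeness in such nearly flat profiles is a description of these 6 arrays only.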

How the data were processed

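Lung RNA of 6 mice was measured on MG-430 PM Array Strips, per the labels. The deposited table gives, for every array, a log2 value per probe set. The authors used RMA and Affymetrix Expression Console, per the submitters' processing notes, with versions not given in the sources used here. Of 45141 probe sets, 104 controls were left out of the tests, and 28898 had 1 gene symbol in the platform annotation. Each mouse was 1 array, and the number of arrays limits the precision. Groups came from the sample titles.

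The log2 values were compared with limma 3.58.1 (lmFit and eBayes without trend) in R 4.3.3 over 45037 probe sets, with Benjamini-Hochberg adjustment. Gene lists used each gene's probe set with the highest mean. With 3 arrays a group, the smallest two-sided p of an exact permutation test is 0.1. Named were all members, 3 genes of each list with the smallest p and 5 genes nearest in profile to Gclc and to Slc7a11. Members and lists were chosen with earlier results of these data known. Other settings were a replicate block, median centring, repeated quantile normalisation, cyclic loess, array weights, a robust prior with a trend, dropping dim probe sets, leaving out each array, the mean of a gene's probe sets and leaving out shared probe sets. The script was tested on simulated data.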

Additional observations from a re-analysis of the deposited data

How the results depend on the processing

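The 12 glutathione probe sets had 5 lower and 0 higher. The count of lower ones was 2 after repeated quantile normalisation and 2 after cyclic loess, and 4 to 6 on leaving out each array in turn; the count of higher ones was 0 under every setting tried. With a replicate block it was 5, and the block ended no call among the 12, while that of Gsto1 ended (adjusted p = 0.0725). The labels give no pairing beyond the numbers, the deviations of same-numbered arrays correlated at 0.08, 0.03 and -0.11, and hydrogen replicate 1 was the only hydrogen array nearest to its own number. Gclc and Gclm were past the threshold in all 13 settings fitted on single probe sets, with changes of -0.77 to -0.46 for Gclc and -0.59 to -0.27 for Gclm. Of the further 50 genes, 19 were lower and 5 higher. These became 29 lower and 3 higher after median centring, 5 lower after repeated quantile normalisation, 7 lower after cyclic loess, 1 higher without dim probe sets and 8 higher with the mean of all probe sets; leaving out each array gave 12 to 19 lower and 4 to 5 higher. The replicate block gave 18 lower and 6 higher. Idh2 turned to 0.02 after repeated quantile normalisation. Over all probe sets, 10956 were higher, and 6377 after median centring and 3663 without dim probe sets, where fewer probe sets were tested. The cause of the other shifts was not tested. Low signal limits what can be said of Slc7a11.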

Other observations

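Further probe sets of some glutathione genes moved against the brightest one. For Txnrd3, which encodes a thioredoxin reductase with a glutaredoxin domain, the brightest probe set had a change of 0.08 (adjusted p = 0.543), while 1449623_PM_at had means of 6.46 in hydrogen lungs and 7.20 in control lungs, a log2 fold change of -0.73 (limma adjusted p = 0.00160). For Slc25a10, the dicarboxylate carrier of mitochondria, 1416955_PM_at had means of 6.22 in hydrogen lungs and 5.88 in control lungs (0.34, adjusted p = 0.00412), against -0.05 on the brightest. Gpx4, the peroxidase that acts on membrane lipids, had changes of 0.15 (adjusted p = 0.0503) and 0.19 (adjusted p = 0.0204) on its 2 probe sets, the only members of the peroxidase list with positive values.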
